A study of Mus musculus with 16 samples.

Results

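The smooth muscle contractile genes *Acta2*, *Actg2*, *Myh11*, *Tagln*, *Cnn1*, *Des*, *Lmod1*, *Smtn*, *Myocd* and *Mylk* were followed in the seminal vesicle (SV), the male accessory gland whose muscle coat expels the secretion. They were taken by name from the RNA-seq table as 10 of its 31274 genes, and all 10 passed the filter on low values (mean FPKM above 1 in any of the groups) that let 15988 genes into the tests (here *Des* is the gene of desmin and DES the drug). FPKM counts the fragments of a gene scaled to its transcript length and to all mapped fragments of the library, so that levels can be set side by side between genes.

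RNA-seq was performed on SVs of C57BL/6 mice at week 5 in 16 samples, with 4 in each of 4 groups. WT-veh and αERKO-veh pups, of the wild type and lacking ERα (encoded by *Esr1*) in the whole body, received corn oil alone under the skin. WT-DES and αERKO-DES pups received diethylstilbestrol (DES), a synthetic oestrogen, in the same oil, with a daily dose of 2 µg for each pup from day 1 to day 5 of life. The methods describe RNA from individual mice in WT-veh, αERKO-veh and αERKO-DES but from pools of mice in WT-DES, and the number of pools given there is lower than the 4 RNA-seq samples of that group. How the pools relate to the 4 samples is not given in the sources used here, so the spread in WT-DES may not measure the same thing as in the other groups, and all p-values measure only the spread between these samples.

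In smooth muscle, calcium entering the cell binds calmodulin, which switches on myosin light chain kinase, and the phosphorylated myosin then pulls on actin filaments anchored in dense bodies. Many genes of this machinery carry CArG boxes, the DNA element bound by serum response factor (SRF), and are switched on by SRF together with its muscle coactivator myocardin. The SV wall holds such muscle around a secretory epithelium, with fibroblasts, vessels, nerves and fat beside it.

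To show the DNA element behind this background, the 250 bases before the start of each gene were searched in RefSeq promoters (GRCm38.p6) for the CArG box, on both strands. A window was given for *Acta2*, *Cnn1*, *Des*, *Lmod1*, *Smtn* and *Mylk*, and not for *Actg2*, *Myh11*, *Tagln* and *Myocd*. No exact box lay in these 6 windows, against 1.47% of all 32851 windows, but the windows of *Acta2* and *Lmod1* each held 2 boxes with 1 mismatch, a number that 2.96% of all windows reach. The stretches of these windows around the boxes are printed 5′ to 3′ on the gene's strand, with the boxes in capitals, for *Acta2* at chr19:34255374-34255497 (minus strand) and for *Lmod1* at chr1:135324584-135324698 (plus strand).
Acta2: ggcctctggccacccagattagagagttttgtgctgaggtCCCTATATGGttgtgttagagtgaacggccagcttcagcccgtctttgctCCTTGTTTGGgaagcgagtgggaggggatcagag
Lmod1: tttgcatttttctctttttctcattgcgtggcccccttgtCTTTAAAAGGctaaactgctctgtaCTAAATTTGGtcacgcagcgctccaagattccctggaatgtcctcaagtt
The boxes of *Acta2* began 84 and 34 bases before the RefSeq start, and those of *Lmod1* 189 and 164 bases before it. In the GENCODE M21 annotation *Acta2* starts further upstream (chr19:34241090-34255590, minus strand), so its printed stretch lies inside the gene there. A match of letters is a description of the window, and no match in the other 4 windows says nothing of boxes elsewhere in those genes.

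One library has to be named before the results. WT-DES sample 1 had the highest FPKM of the 4 WT-DES samples for all 10 genes, as for 38.6% of all genes tested, and it was at least 2-fold above the mean of WT-DES samples 2 to 4 for 9 of the 10, against 5.84% of all genes tested. Over all genes tested, the median of this ratio was 1.004. As a whole library it was still the least like its own group, with a median Pearson's r to the other WT-DES samples of 0.918 over all genes tested. This r was 0.955 for WT-DES samples 2 to 4 and at least 0.968 in the other groups. The results for the 10 genes that rest on WT-DES are therefore given with this sample and without it. The label of genotype held in the data, since *Esr1* was at 2.81 to 4.55 FPKM in WT-veh and 8.74 to 19.6 in WT-DES but at 0.91 to 1.75 in the αERKO samples. The secretion gene *Svs2* had 8196 to 10031 FPKM in WT-veh, only 325 to 1215 in WT-DES and 4937 to 10540 in the αERKO samples. WT-DES sample 1 had the highest *Svs2* value of its group, but WT-DES sample 4 was higher for *Svs4* (2476 against 2002 FPKM) and *Svs5* (2107 against 1991). The depth of the libraries is unknown from FPKM, and fewer cells of a type cannot be told apart from less RNA per cell in whole tissue.

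The SV of vehicle-treated WT mice expressed these genes at very different levels. *Tagln*, the gene of the actin-binding protein transgelin (SM22), stood highest, with 1071 ± 88.5 FPKM (SD, n = 4) in WT-veh, above every other member in each sample. *Acta2* (618 ± 45.2 FPKM), *Cnn1* (566 ± 52.3), *Actg2* (483 ± 79.6) and *Mylk* (383 ± 49.3) followed, and each of these overlapped its neighbour in this order. *Myh11* (269 ± 57.1 FPKM) and *Des* (259 ± 32.6) overlapped each other and lay below all *Mylk* values. *Smtn* (80.8 ± 6.29 FPKM) and *Lmod1* (41.3 ± 5.27) came next, each apart from its neighbours, and *Myocd* (2.30 ± 0.768), the gene of the transcriptional coactivator, was by far the lowest. The defining markers of smooth muscle were thus present in the SV, at 3487 to 4322 FPKM summed over the 10 genes in the WT-veh samples.

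**Figure D1:**
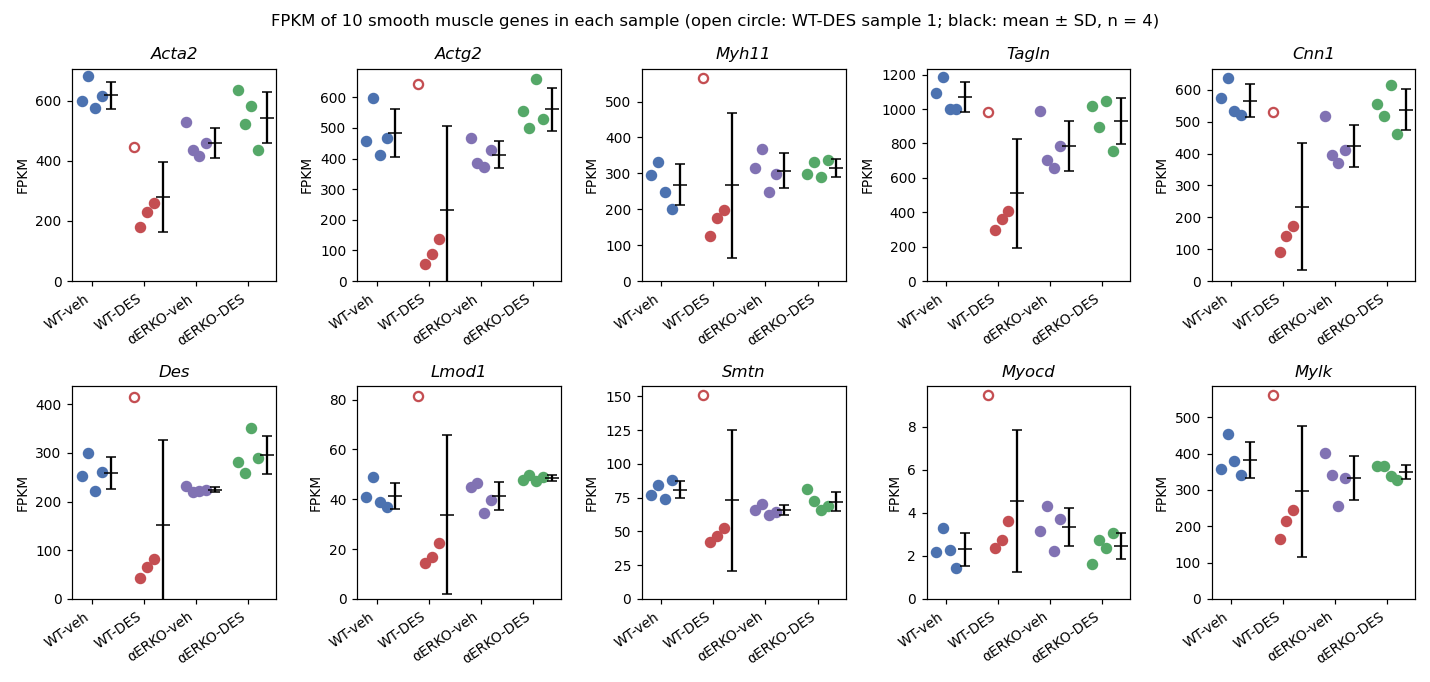
FPKM of each of the 10 genes (vertical axes, from 0) in the 4 samples of each group (points, in the order of their numbers), with the mean and SD (black, n = 4; bars that would pass below 0 end at the axis). The open circle is WT-DES sample 1, which is the highest WT-DES value in all 10 panels, while WT-DES samples 2 to 4 lie below every WT-veh sample in 9 of the 10 panels, *Myocd* being the other.

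The effect of neonatal DES in WT mice was examined first. Of the 10 genes, *Acta2*, *Actg2*, *Cnn1*, *Des* and *Tagln* fell in WT-DES relative to WT-veh, while the other 5 did not pass the test in either direction. A gene was called when limma, fitted on log2(FPKM + 1) over all 16 samples, gave a Benjamini-Hochberg adjusted p of at most 0.05 over all genes tested together with a 1.5-fold ratio of mean FPKM. By this rule 23.9% of all genes tested were called lower and 28.9% higher, so a change in WT-DES was common in the whole table. Without WT-DES sample 1 the same 5 and also *Lmod1*, *Mylk*, *Myh11* and *Smtn* were called lower, 9 of the 10, against 24.9% of all genes lower and 29.3% higher. The median log2 difference of the 10 genes was -0.93 with all samples and -1.33 without WT-DES sample 1, and that of all genes tested was -0.01 in both.

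Overlap between the samples depended on WT-DES sample 1. All 4 WT-DES samples lay below all 4 WT-veh samples for *Acta2* and *Tagln*, 2 of the 10, and 34.0% of all genes tested did so. WT-DES samples 2 to 4 lay below all WT-veh samples for 9 of the 10, against 38.6% of all genes. Of WT-DES samples 2 to 4, sample 2 was the lowest and sample 4 the highest for all 10 genes, as for 20.5% of all genes.

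Of the filament proteins, the smooth muscle actins are the tracks on which myosin pulls, α-actin (*Acta2*) in most smooth muscle and γ-actin (*Actg2*) above all in visceral muscle. *Acta2* was at 599, 681, 576 and 615 FPKM in WT-veh samples 1 to 4 and at 445, 180, 229 and 261 in WT-DES samples 1 to 4. It was lower in every WT-DES sample, and WT-DES sample 1 was the nearest to the WT-veh range. The log2 difference was -1.22 ± 0.21 (SE, limma adjusted p = 8.59e-05), and -1.48 ± 0.15 without WT-DES sample 1 (limma adjusted p = 5.65e-07).

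*Actg2* was at 458, 597, 413 and 466 FPKM in WT-veh and at 642, 56.3, 86.7 and 137 in WT-DES samples 1 to 4. WT-DES sample 1 lay above every WT-veh sample, whereas samples 2 to 4 held 11.6%, 17.9% and 28.3% of the WT-veh mean, the lowest share of any of the 10 genes. The log2 difference was -1.72 ± 0.50 (SE, limma adjusted p = 0.00589) with WT-DES sample 1 and -2.44 ± 0.22 (limma adjusted p = 2.75e-07) without it.

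*Myh11* encodes the smooth muscle myosin heavy chain, the motor itself, and is widely taken as the most specific marker of the mature cell. Its FPKM was 295, 332, 248 and 201 in WT-veh and 567, 125.7, 176 and 199 in WT-DES, and the group means were nearly equal at 269 and 267. This equality rested on WT-DES sample 1, since samples 2 to 4 were all below the lowest WT-veh sample, though by little for sample 4. The log2 difference was -0.24 ± 0.33 (SE, limma adjusted p = 0.52) with all samples and -0.69 ± 0.18 (limma adjusted p = 0.00347) without WT-DES sample 1.

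*Tagln*, *Cnn1* and *Smtn* encode proteins that bind the actin filament, calponin (*Cnn1*) and smoothelin (*Smtn*) being typical of fully contractile cells. *Tagln* was at 1095, 1186, 1001 and 1001 FPKM in WT-veh and at 981, 294, 358 and 406 in WT-DES, with a log2 difference of -1.24 ± 0.28 (SE, limma adjusted p = 0.001). WT-DES sample 1 was just under the lowest WT-veh sample, and without it the difference was -1.61 ± 0.16 (limma adjusted p = 7.54e-07). *Cnn1* was at 575, 637, 534 and 520 FPKM in WT-veh and at 530, 91.0, 142 and 172 in WT-DES. Here WT-DES sample 1 fell within the WT-veh range, the only such case among the 10 genes, and the log2 difference was -1.60 ± 0.36 (SE, limma adjusted p = 9.85e-04), or -2.10 ± 0.18 without that sample. *Smtn* was at 77.3, 84.0, 73.9 and 87.8 FPKM in WT-veh and at 151, 42.2, 46.5 and 52.7 in WT-DES. The difference of *Smtn* did not pass with all samples (-0.35 ± 0.28, limma adjusted p = 0.263) but did without WT-DES sample 1 (-0.77 ± 0.09, limma adjusted p = 2.99e-06).

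*Des* and *Lmod1* belong to the frame of the contractile unit, desmin as the intermediate filament that links dense bodies and leiomodin 1 as a nucleator of actin filaments. *Des* was at 252, 301, 222 and 261 FPKM in WT-veh and at 415, 43.6, 65.4 and 82.1 in WT-DES. WT-DES sample 1 was above all WT-veh samples and 6.51 times the mean of samples 2 to 4, and the log2 difference was -1.36 ± 0.46 (SE, limma adjusted p = 0.0151), or -2.04 ± 0.17 without it. The call of *Des* was lost at -0.97 without WT-DES sample 2, -1.16 without sample 3 and -1.27 without sample 4 (limma adjusted p = 0.0585, 0.0482 and 0.0382, where the ratio of means without sample 3 or 4 missed the 1.5-fold limit), and with only the groups compared in the fit (limma adjusted p = 0.0791). *Lmod1* was at 41.1, 48.8, 38.8 and 36.7 FPKM in WT-veh and at 81.3, 14.4, 16.9 and 22.3 in WT-DES. Its difference was -0.64 ± 0.36 (SE, limma adjusted p = 0.122) with all samples and passed the test at -1.18 ± 0.13 (limma adjusted p = 2.00e-06) without WT-DES sample 1.

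The remaining pair were the kinase that starts contraction and the coactivator of the programme. *Mylk*, the gene of myosin light chain kinase, was at 358, 453, 379 and 340 FPKM in WT-veh and at 563, 164, 215 and 245 in WT-DES. Its difference was -0.52 ± 0.27 (SE, limma adjusted p = 0.0937), and -0.89 ± 0.16 (limma adjusted p = 1.34e-04) without WT-DES sample 1. *Myocd* was at 2.19, 3.30, 2.26 and 1.43 FPKM in WT-veh and at 9.45, 2.36, 2.75 and 3.63 in WT-DES, the only one of the 10 genes with a higher mean in WT-DES. It did not pass the test with all samples (0.62 ± 0.30, limma adjusted p = 0.0707) or without WT-DES sample 1 (0.26 ± 0.21, limma adjusted p = 0.264), and at so low a level log2(FPKM + 1) understates its difference. It was called higher when single samples other than that one were left out, at 0.76 without WT-veh sample 2, 0.81 without WT-DES sample 2 and 0.76 without WT-DES sample 3 (limma adjusted p = 0.0441, 0.0273 and 0.0447).

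The genes therefore differed in how much of the WT-veh level was left in WT-DES samples 2 to 4. Their mean was 19.3% of the WT-veh mean for *Actg2*, 23.9% for *Cnn1*, 24.6% for *Des*, 32.9% for *Tagln* and 36.2% for *Acta2*. It was 43.2% for *Lmod1*, 54.4% for *Mylk*, 58.3% for *Smtn*, 62.0% for *Myh11* and 127% for *Myocd*. By their longest annotated transcripts, *Actg2*, *Tagln*, *Acta2*, *Cnn1* and *Des* are the shortest genes (1333 to 3028 nt). The others run from 3386 to 7824 nt. A trend of the values with transcript length, given below, differed between WT-veh and WT-DES, and its part in this order was not tested. In WT-DES sample 1 the share ran from 72.1% for *Acta2* to 412% for *Myocd*, above all WT-veh samples for 7 genes. This sample exceeded the mean of WT-DES samples 2 to 4 between 1.99-fold for *Acta2* and 6.88-fold for *Actg2*.

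**Figure D2:**
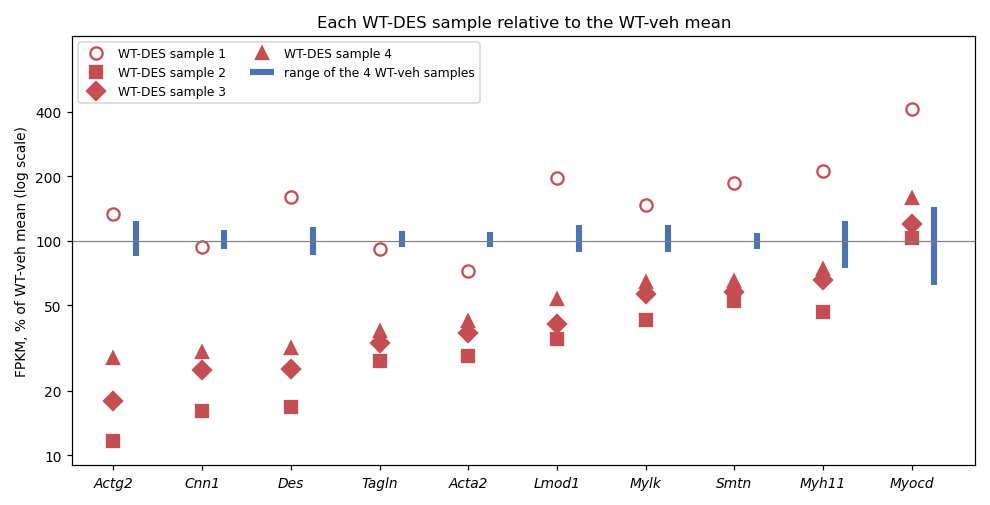
FPKM of each gene in the 4 WT-DES samples as a percent of the WT-veh mean (vertical axis, log scale), with the genes ordered by the mean of samples 2 to 4 and the range of the 4 WT-veh samples as a blue bar beside them. Samples 2 to 4 (filled) rise from 11.6% of the WT-veh mean for *Actg2* in sample 2 to 158% for *Myocd* in sample 4, while sample 1 (open) lies between 72.1% and 412%.

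Markers of other cell types also differed between these groups. In WT-DES relative to WT-veh, 10 of 10 leukocyte markers, 6 of 6 endothelium markers and 7 of 8 fibroblast markers were called higher, and 5 of 6 epithelium markers were called lower (limma, all samples), against 28.9% of all genes called higher and 23.9% called lower. The most abundant were *Lyz2*, *Tyrobp* and *Laptm5* of the leukocyte list, *Pecam1*, *Emcn* and *Cdh5* of the endothelium list, *Dcn*, *Col3a1* and *Col1a2* of the fibroblast list and *Krt18*, *Krt19* and *Krt8* of the epithelium list. These counts were the same without WT-DES sample 1 except for 4 of 6 epithelium markers, *Epcam* having lost its call. The summed FPKM of the leukocyte list ran from 124 to 205 in WT-veh and from 585 to 858 in WT-DES, and that of the fibroblast list from 844 to 1002 and from 2091 to 2381. All genes of the table summed to between 590446 and 652708 FPKM in WT-veh and between 375207 and 437619 in WT-DES, and the 10 genes made up 0.541% to 0.732% of it in WT-veh, 1.02% in WT-DES sample 1 and 0.270% to 0.393% in WT-DES samples 2 to 4. The part of these shifts in the results was not tested.

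Values also depended on how the libraries were brought to one scale. After quantile normalization none of the 10 genes was called in WT-DES (limma; 1 had an unadjusted p under 0.05), and *Tagln* stood at 0.05 on the log2 scale. When each library was rescaled without its 20 most abundant genes, which moved the median of all genes up by 0.39, *Des* lost its call (-0.93, limma adjusted p = 0.0657) and *Myocd* was called higher (0.94, limma adjusted p = 0.0101), while *Acta2*, *Actg2*, *Cnn1* and *Tagln* were called lower there too.

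The next question was whether these changes needed ERα. In αERKO mice, DES changed none of the 10 genes by the same rule, and 1.49% of all genes tested were called in either direction. No member had an unadjusted p under 0.05 in the limma fit of all 16 samples, whose pooled spread includes WT-DES sample 1. The number with an unadjusted p under 0.05 was 4 with only the 2 groups compared in the fit, 2 with sample weights and 1 without WT-DES sample 1, and none was called there or after quantile normalization. The log2 differences of αERKO-DES relative to αERKO-veh ran from -0.33 for *Myocd* to 0.44 for *Actg2*, with standard errors of 0.21 to 0.50, and their median was 0.23 against 0.02 for all genes. *Actg2* was at 468, 385, 371 and 427 FPKM in αERKO-veh and at 555, 500, 659 and 529 in αERKO-DES, so the groups did not overlap and DES samples were the higher ones. *Acta2* was at 529, 436, 415 and 460 FPKM in αERKO-veh and at 636, 524, 581 and 434 in αERKO-DES, with overlap. *Des* was at 220 to 233 FPKM in the vehicle group and at 259 to 351 in the DES group, also without overlap and higher after DES.

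*Tagln* lay at 657 to 990 FPKM with vehicle and at 755 to 1048 with DES in αERKO, and *Cnn1* at 370 to 519 and 463 to 616. *Lmod1* lay at 34.3 to 46.4 FPKM with vehicle and at 47.2 to 49.9 with DES, apart by less than 1 FPKM. *Actg2*, *Des* and *Lmod1* were thus the 3 of the 10 with all αERKO-DES samples above all αERKO-veh samples, as 6.40% of all genes were. *Mylk*, *Myh11*, *Smtn* and *Myocd* overlapped between these groups.

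A direct test of the difference was the interaction, in which the log2 difference between DES and vehicle in αERKO is subtracted from the one in WT. It passed for *Acta2* (-1.46 ± 0.29), *Actg2* (-2.16 ± 0.71), *Cnn1* (-1.95 ± 0.51), *Des* (-1.74 ± 0.65) and *Tagln* (-1.49 ± 0.40), with limma adjusted p between 4.60e-04 and 0.0261. Without WT-DES sample 1 the values of these genes were -1.71, -2.88, -2.45, -2.43 and -1.86 in the same order. These are 5 of the 10 genes, against 26.9% of all genes tested called in this direction. Without WT-DES sample 1 it passed for 9 of the 10, against 27.9%, with *Myocd* at 0.60 ± 0.29 (limma adjusted p = 0.0734) as the one that did not. *Myocd* differed in the other direction, in which 29.6% of all genes were called (30.4% without WT-DES sample 1), at 0.95 ± 0.42 with all samples (limma adjusted p = 0.0537). It passed with a pseudocount of 0.1 (1.22), with sample weights (0.66), after rescaling without the top 20 genes (1.36), and without WT-veh sample 2 (1.09), WT-DES sample 2 (1.14), WT-DES sample 3 (1.09) or αERKO-veh sample 3 (1.09), with limma adjusted p between 0.00941 and 0.0473. With an adjusted p of at most 0.01, 3 of the 10 passed with all samples, *Acta2*, *Cnn1* and *Tagln*. The interaction call of *Des* was also lost without WT-DES sample 2, without WT-DES sample 3 and after rescaling without the top 20 genes.

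With DES given to both genotypes, αERKO-DES had the higher level of the same 5 genes, and 23.7% of all genes tested were called higher in it than in WT-DES. *Actg2* differed most, by 1.94 ± 0.50 on the log2 scale (SE, limma adjusted p = 0.00257), and *Acta2* differed by 1.03 ± 0.21 (limma adjusted p = 3.86e-04). With WT-DES sample 1 left out, these differences were 2.66 ± 0.22 and 1.28 ± 0.15 (limma adjusted p = 8.85e-08 and 1.89e-06). Leaving out WT-DES sample 1, the number called higher was 9, against 25.3% of all genes. After rescaling without the top 20 genes, *Tagln* lost its call and *Myocd* was called lower in αERKO-DES than in WT-DES. *Myocd* was also called lower without WT-DES sample 2, and *Des* lost its call with only the groups compared in the fit. This comparison and the one within WT share the WT-DES samples, and the comparisons of WT-DES and of αERKO-veh with WT-veh share the WT-veh samples, so they are not independent of each other.

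Loss of ERα by itself left all 10 genes uncalled. In αERKO-veh relative to WT-veh, where 7.12% of all genes were called in either direction, no member reached an unadjusted p under 0.05 in the limma fit of all 16 samples. With sample weights 5 did, with only the 2 groups compared in the fit 4 did and with the replicate block 1 did, but none was called in these fits or after quantile normalization. The log2 differences ran from -0.46 for *Tagln* to 0.41 for *Myocd*, with a median of -0.21. All 4 αERKO-veh samples lay below all 4 WT-veh samples for *Acta2* (415 to 529 against 576 to 681 FPKM), *Tagln* (657 to 990 against 1001 to 1186), *Cnn1* (370 to 519 against 520 to 637) and *Smtn* (61.9 to 70.7 against 73.9 to 87.8), 4 of the 10, and 17.1% of all genes tested did so. When WT-DES sample 1 was left out of the fit, which lowered the estimate of the spread, the adjusted p was 0.0283 for *Acta2*, 0.0326 for *Tagln* and 0.0182 for *Smtn* (limma), but each ratio stayed under 1.5-fold and none was called. *Myh11* at 248 to 367 FPKM and *Lmod1* at 34.3 to 46.4 overlapped the WT-veh range.

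**Figure D3:**
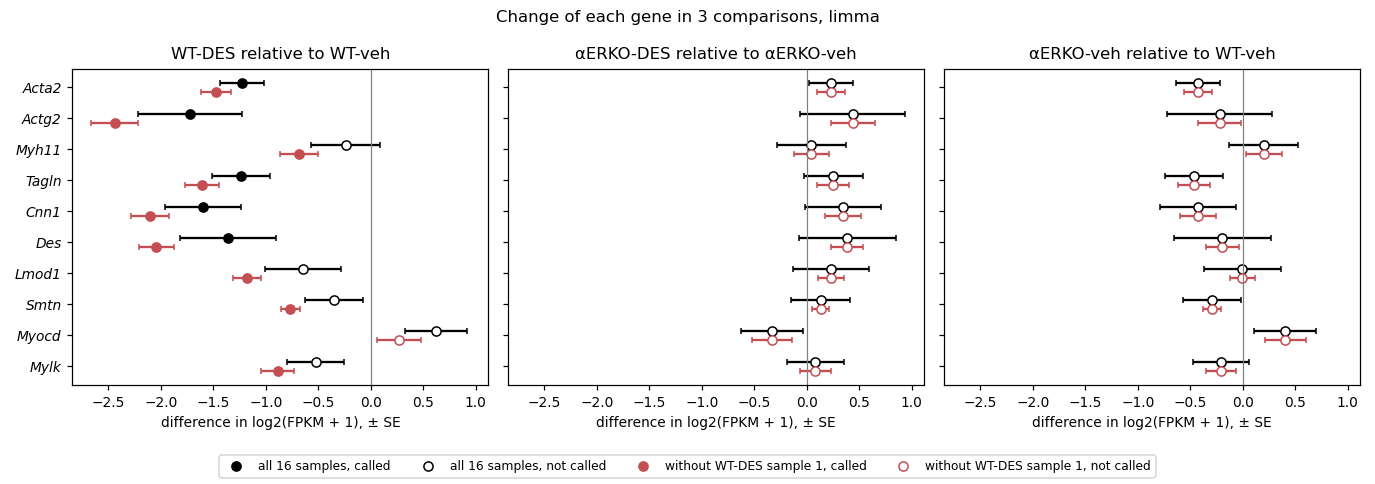
Difference in log2(FPKM + 1) with its standard error (horizontal axis) for the 10 genes in 3 comparisons, from limma on all 16 samples (black) and without WT-DES sample 1 (red), with filled points for calls. In WT-DES relative to WT-veh 5 points are filled with all samples and 9 without that sample, and in the other panels none is filled.

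Levels within a sample were compared as ratios to *Acta2*, which do not depend on how the libraries were scaled. The ratio of *Actg2* to *Acta2* ranged from 0.717 to 0.878 in WT-veh and stood at 1.44 in WT-DES sample 1 and 0.312, 0.378 and 0.526 in WT-DES samples 2, 3 and 4. The WT-DES samples thus lay on both sides of the WT-veh range, and the difference of mean log2 ratios was -0.51 (exact two-sided permutation test, p = 0.343, adjusted over 4 comparisons 0.343). Without WT-DES sample 1 it was -0.97 (exact permutation p = 0.0571, the smallest that 3 against 4 samples can give, so this test could not pass 0.05). The αERKO samples had ratios of 0.883 to 0.930 after vehicle and 0.872 to 1.22 after DES.

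The ratio was higher in all 4 αERKO-veh samples than in all 4 WT-veh samples, by 0.21 on the log2 scale, with p = 0.0286, the smallest that the exact permutation test of 4 against 4 can give, and 0.114 after adjustment over the 4 comparisons. Between αERKO-DES and αERKO-veh the difference was also 0.21 (exact permutation p = 0.143, adjusted 0.19), and between αERKO-DES and WT-DES it was 0.92 (exact permutation p = 0.143, adjusted 0.19). These ratios could carry a trend with transcript length, since the longest annotated transcripts run from 1333 nt for *Actg2* to 7824 nt for *Mylk*. The rank correlation across genes of length with each sample's deviation from the mean of all samples ran from -0.52 to -0.21 among WT-veh samples, from 0.16 to 0.19 among WT-DES samples, from -0.09 to 0.44 among αERKO-veh samples and from -0.28 to 0.17 among αERKO-DES samples. With a correction for length, *Mylk* was also called lower in WT-DES (-0.94, limma adjusted p = 0.00639), and the αERKO-veh difference of *Actg2* was 0.05.

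Further ratios were taken after the values had been seen and are given with no test. *Myh11* to *Acta2* ranged from 0.326 to 0.493 in WT-veh and was 0.697 to 0.767 in WT-DES samples 2 to 4 and 1.27 in WT-DES sample 1. *Myocd* to *Acta2* ranged from 0.00233 to 0.00485 in WT-veh and from 0.0120 to 0.0212 in WT-DES. Both ratios were thus higher in all 4 WT-DES samples than in all 4 WT-veh samples. In αERKO-veh they were 0.594 to 0.843 and 0.00534 to 0.00987, likewise above the WT-veh range, and in αERKO-DES they were 0.467 to 0.778 and 0.00255 to 0.00700, overlapping it. The longest annotated transcripts are 6549 nt for *Myh11* and 5114 nt for *Myocd* but 2035 nt for *Acta2*. The trend with length was not removed from these ratios, and its part in them was not tested. How often ratios of other genes to *Acta2* separate the groups was not counted.

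**Figure D4:**
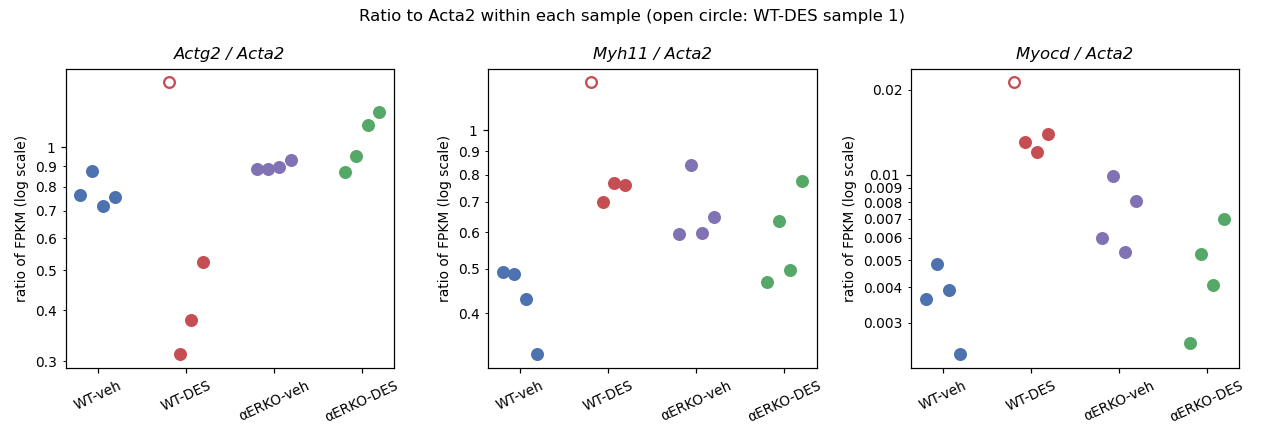
Ratio of FPKM of *Actg2*, *Myh11* and *Myocd* to *Acta2* within each sample (vertical axes, log scale), with 4 points per group in the order of their numbers. For *Actg2* the WT-DES samples lie at 0.312 to 0.526 apart from sample 1 (open circle) at 1.44, whereas for *Myh11* and *Myocd* all 4 WT-DES points lie above all WT-veh points.

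How far the 10 genes varied together was described next. Pearson's r between pairs of them on log2(FPKM + 1) had a median of 0.87 over the 16 samples (45 pairs), 0.92 after each group mean was subtracted and 0.47 over the 12 samples outside WT-DES. The pair least alike in all 3 cases was *Acta2* and *Myocd*, with r of -0.16, 0.65 and -0.50 in the same order. Without WT-DES sample 1 the median was 0.91, and 0.61 after each group mean was subtracted. These values are descriptions, since the genes share libraries and the 4 WT-DES samples supply much of the spread.

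The genes most like the mean of the 10 over the 16 samples, among 10054 genes with at least 10 FPKM in a group, were *Bdh1* and *Paqr5* (r = 0.98) and *Jph2*, *Tinagl1* and *Rassf3* (r = 0.97). *Bdh1* was at 21.0 FPKM in WT-veh on average and at 36.3, 2.25, 3.73 and 5.43 in WT-DES samples 1 to 4. After subtraction of the group means the leading genes were *Jph2* (r = 0.99), *Optc*, *Synm*, *Paqr5* and *Popdc2* (r = 0.98). With WT-DES sample 1 left out, the first 5 genes had r of 0.98, and the second 5 had r of 0.82 to 0.89. *Synm*, the gene of the intermediate filament protein synemin, was at 41.3 FPKM in WT-veh on average and at 129, 11.4, 12.95 and 17.3 in WT-DES samples 1 to 4, so it too was high in sample 1 and low in the other three.

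Other genes of the contractile pathway were read from fixed lists, counted by the same limma calls. Of 20 genes of the thin filament and dense body, 2 fell in WT-DES relative to WT-veh, *Tpm1* and *Tpm2*, which encode tropomyosins, 3 rose (*Filip1l*, *Lpp* and *Svil*) and 15 did not pass the test, with a median log2 difference of 0.15, or -0.07 without WT-DES sample 1. With all samples both shares lay under the 23.9% of all genes called lower and the 28.9% called higher. *Tpm2* was at 533 ± 29.3 FPKM in WT-veh (SD, n = 4) and at 380, 94.2, 134 and 152 in WT-DES samples 1 to 4. *Cald1*, the gene of caldesmon, was at 231 ± 78.8 FPKM in WT-veh and at 588, 130, 158 and 190 in WT-DES, and did not pass. WT-DES sample 1 had the highest WT-DES value for all 20 of these genes, and without it 6 fell (*Pdlim3*, *Pdlim7*, *Pgm5*, *Synm*, *Tpm1* and *Tpm2*) and 3 rose, so that the share that fell was then above the 24.9% of all genes.

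Of 17 genes of the myosin light chain and its phosphorylation, *Hspb6*, *Myl9* and *Rhoa* fell in WT-DES and 7 rose, among them *Rock2*, a kinase that restrains myosin phosphatase, and *Pde5a*, the phosphodiesterase of cyclic GMP, against 28.9% of all genes called higher and 23.9% called lower. *Myl9*, the regulatory light chain of smooth muscle myosin, was at 889 ± 49.1 FPKM in WT-veh and at 856, 266, 377 and 421 in WT-DES samples 1 to 4. *Rhoa*, a small GTPase that acts upstream of such kinases, was at 115 ± 3.93 FPKM in WT-veh and at 83.9, 71.8, 73.0 and 73.7 in WT-DES samples 1 to 4, with sample 1 the highest but also below WT-veh. *Myl6*, the essential light chain, was at 199 ± 14.1 FPKM in WT-veh and 142 ± 16.1 in WT-DES, a difference under the 1.5-fold limit (log2 -0.49, limma adjusted p = 0.00747). Without WT-DES sample 1, 4 fell, *Ppp1r14a* being the addition, and 5 rose, *Rock2* being among those lost (34.4 FPKM in sample 1 and 17.0 to 18.4 in samples 2 to 4), where 24.9% of all genes fell and 29.3% rose.

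Of 15 tested genes of calcium handling and ion channels, 8 rose and 1 fell in WT-DES, against 28.9% of all genes called higher and 23.9% called lower. The one that fell was *Casq2*, which encodes calsequestrin of the calcium store. Among those that rose were *Cacna1c*, the L-type calcium channel, *Kcnma1*, the large calcium-activated potassium channel, and *Pln*, phospholamban. The highest expressed member was *Atp2a2*, the calcium pump of the store, at 74.8 ± 8.05 FPKM in WT-veh and 65.5 ± 26.3 in WT-DES (log2 difference -0.25, limma adjusted p = 0.222). *Ano1*, a calcium-activated chloride channel, was at 52.8 ± 4.91 and 61.1 ± 10.2 FPKM and *Stim1*, the calcium sensor of the store, at 27.9 ± 1.27 and 26.0 ± 5.97, and neither passed. When sample 1 was left out, 6 rose and 1 fell, *Kcnma1* being among those lost (13.2 FPKM in sample 1 and 5.69 to 6.64 in samples 2 to 4), against 29.3% and 24.9% of all genes.

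Of 12 tested receptors that drive or relax contraction, *Adra1d*, *Ednra*, *Ednrb* and *Oxtr* rose, and *Ptger3* was among those that fell, against 28.9% of all genes called higher and 23.9% called lower. *Ptger3*, a prostaglandin E receptor, was at 25.5 ± 2.88 FPKM in WT-veh and 12.2 ± 2.97 in WT-DES (log2 difference -1.02, limma adjusted p = 6.23e-06). *Npr1*, a natriuretic peptide receptor, was at 19.97 ± 2.64 and 18.5 ± 4.91 FPKM and did not pass. *P2rx1*, the ATP-gated channel through which nerves excite smooth muscle of the male tract, was at 182 FPKM in WT-DES sample 1 and at 2.42, 7.65 and 11.1 in samples 2 to 4, with 21.2 ± 4.002 in WT-veh. That sample was the highest by far for this gene, which fell when it was left out, as did *Ptger3*, while *Adra1a* joined the 4 that rose.

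Regulators of the programme were counted in the same way. Of 15 tested SRF cofactors and regulators, 8 rose in WT-DES, among them *Csrp2*, *Foxf1*, *Gata6*, *Klf4*, *Klf5*, *Mef2c* and *Prkg1*, and *Csrp1* fell, against 28.9% of all genes called higher and 23.9% called lower. *Csrp1*, an LIM protein of the actin skeleton, was at 851 ± 61.5 FPKM in WT-veh and at 762, 256, 284 and 302 in WT-DES samples 1 to 4. *Csrp2*, its relative, was at 60.4 ± 6.45 FPKM in WT-veh and 104 ± 25.8 in WT-DES, and *Tgfb1i1* (Hic-5) was at 35.2 ± 3.63 and 35.7 ± 13.3. With sample 1 left out, 7 rose, *Klf4* being lost, and *Csrp1* fell, against 29.3% and 24.9% of all genes.

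Markers of mural cells, the contractile cells on small vessels that share part of this gene set, were counted as well. Of 9, *Abcc9*, *Kcnj8*, *Mcam*, *Notch3*, *Pdgfrb* and *Rgs5* rose in WT-DES, with and without sample 1 (28.9% and 29.3% of all genes were called higher), and *Cox4i2* fell with it only. *Rgs5* was at 18.5 ± 1.44 FPKM in WT-veh and at 75.0, 37.5, 43.2 and 58.9 in WT-DES samples 1 to 4. *Pdgfrb* was at 12.1 ± 0.990 FPKM in WT-veh and at 26.8, 42.3, 40.01 and 35.7 in WT-DES, with sample 1 the lowest.

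**Figure D5:**
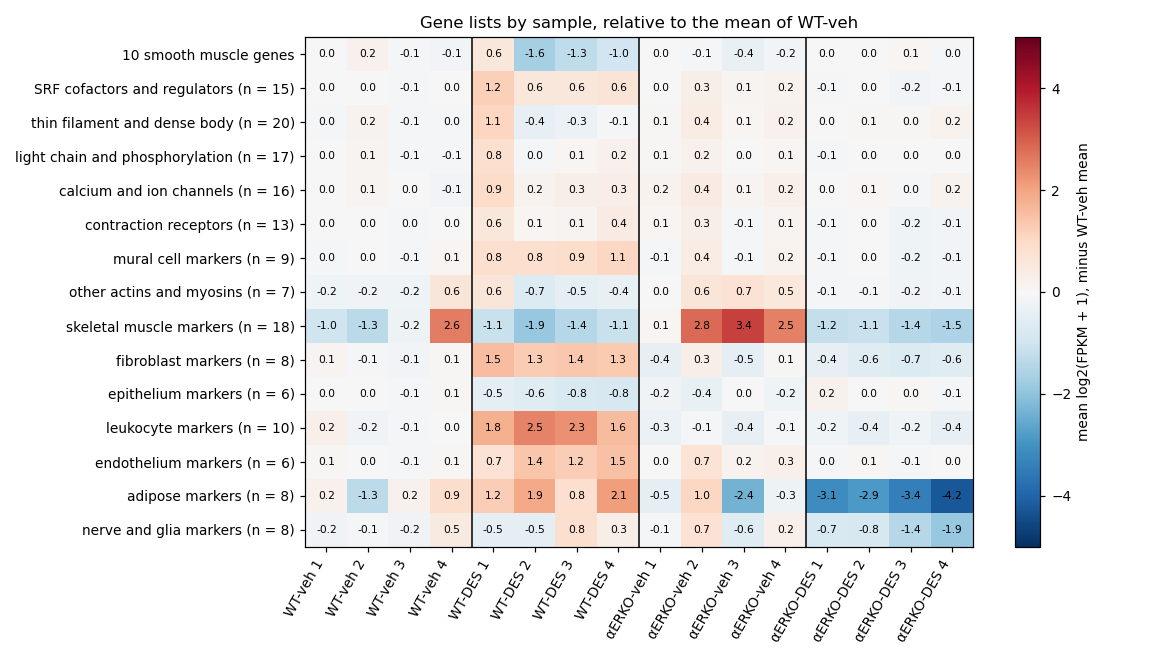
Mean log2(FPKM + 1) of each gene list in every sample, minus the mean of the 4 WT-veh samples (colour and printed value; n is the number of genes found in the table). The 10 smooth muscle genes are below WT-veh in WT-DES samples 2 to 4 and above it in sample 1, whereas leukocyte and fibroblast markers are above WT-veh in all 4 WT-DES samples, and skeletal muscle markers are high in WT-veh sample 4 and αERKO-veh samples 2 to 4.

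Striated muscle was checked because *Des* and *Mylk* are expressed there as well. The 18 skeletal muscle markers had a mean log2(FPKM + 1) between 1.99 and 5.90 in the WT-veh samples and between 1.41 and 2.20 in the WT-DES samples (summed FPKM 776 to 2654 and 63.5 to 377). The αERKO-veh samples ranged from 3.43 to 6.75 and the αERKO-DES samples from 1.79 to 2.20 (summed FPKM 831 to 3344 and 619 to 890). *Acta1* and *Tnnc2* alone summed to between 664 and 1096 FPKM with vehicle and between 28.3 and 244 with DES in WT. In αERKO they summed to between 643.5 and 1029 FPKM with vehicle and between 573 and 815 with DES. The other 16 markers ranged from 68.0 to 1558 FPKM with vehicle and from 35.2 to 133 with DES in WT, and in αERKO from 188 to 2314 with vehicle and from 46.7 to 77.0 with DES. In WT-DES 4 fell (*Acta1*, *Ckm*, *Eno3* and *Tnnc2*) and none rose, a share close to the 23.9% of all genes called lower. In αERKO-veh 9 of the 18 were called higher than in WT-veh, against 4.50% of all genes. In αERKO-DES 12 fell from the αERKO-veh level, against 1.41% of all genes, and 15 without WT-DES sample 1 in the fit, against 3.32%. *Des* was at 261 FPKM in WT-veh sample 4, the sample of its group with the most of these markers, and at 222 to 301 in the other three. The part of striated muscle in the *Mylk* and *Des* results was not tested further.

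*Acta1*, skeletal α-actin, had 483 to 705 FPKM in WT-veh, 235 in WT-DES sample 1, 24.9 to 49.0 in WT-DES samples 2 to 4 and 456 to 636 in the αERKO samples. It was thus as abundant as *Acta2* and *Actg2* in WT-veh, and reads from the near-identical coding parts of the muscle actins may have been shared between them by the counting, which was not tested. *Actc1*, cardiac α-actin, had 0.71 to 46.3 FPKM in WT-veh and 0.36 to 29.0 in WT-DES. Of the non-muscle forms, *Actb* was at 504 ± 44.5 FPKM in WT-veh and 373 ± 56.5 in WT-DES, with a log2 difference of -0.44 (limma adjusted p = 0.00801) that missed the 1.5-fold limit, as did *Actg1* at 129 ± 12.45 and 104 ± 4.16 FPKM (log2 difference -0.31, limma adjusted p = 0.00578).

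WT-DES sample 1 was also set against samples 2 to 4 in each list. It was the highest of the WT-DES samples in 20 of 20 thin filament and dense body genes and in 7 of 7 other actins and myosins, but in 0 of 6 endothelium markers, 1 of 10 leukocyte markers and 2 of 9 mural cell markers, against the 38.6% of all genes in which it was the highest. The median log2 ratio of sample 1 to the mean of samples 2 to 4 was 1.71 for the 10 smooth muscle genes, 1.27 for the thin filament and dense body list, -0.60 for endothelium markers and -0.91 for nerve and glia markers. In Dixon's outlier test, which divides the gap to the next sample by the range, 6 of the 10 genes put this sample past the 95% critical value for 4 samples, against 6.69% of all genes tested.

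Of the 10 genes, *Tagln*, *Des*, *Lmod1*, *Smtn* and *Mylk* overlap genes on the opposite strand in the annotation (GENCODE M21), and whether the counting used strand is not given in the sources used here. Without strand, reads of *Tagln* cannot be told apart from those of *Pcsk7* where they overlap, and *Pcsk7* was at 13.9 to 19.4 FPKM over the 16 samples. The other partners are non-coding RNAs.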

How the data were processed

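Total RNA of 16 SV samples was sequenced on an Illumina HiSeq system. Per the study's methods, the authors removed reads of low mean quality (20 or less), mapped the rest to mm10 and derived FPKM for each gene, and their processing notes name TopHat2 2.0.4 and Cufflinks 2.0.2. Only the deposited FPKM values were used. The annotation, any further scaling between libraries and the strand of counting are not given in the sources used here, and FPKM keeps no depth, so precision rests on the spread of 4 samples per group.

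Of 31274 genes, the 15988 whose mean FPKM exceeded 1 in any of the groups were fitted as log2(FPKM + 1) in limma 3.58.1 (R 4.3.3), with 1 mean per group over all 16 samples, a variance trend, and p-values adjusted over all genes tested by Benjamini-Hochberg. Calls needed an adjusted p of at most 0.05, a 1.5-fold ratio of mean FPKM (for the interaction, a 1.5-fold log2 difference) and a mean FPKM above 1 in a group compared. The *Actg2* to *Acta2* ratio was compared by exact two-sided permutation over the 70 arrangements of samples. The fit was tested on simulated data.

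The 10 genes, the other gene lists and the tests were chosen with earlier results of these data known. Named were the 10 genes, the 3 most abundant genes of each list that has a count for WT-DES in the text, members of lists where a count was small, and the 5 genes most alike by 2 measures. Genes named within counts above 5 (such as *Rock2* and *Pln*), *Pcsk7* and *Actc1*, and the ratios of *Myh11* and *Myocd* to *Acta2*, were chosen after their values were seen. Some genes of the lists are not reported here. Positions are from GENCODE M21 (GRCm38), promoters from RefSeq (GRCm38.p6). For the length correction, 94.1% of tested genes had a length, and a lowess trend (span 0.3) on it was subtracted.

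Alternatives were a pseudocount of 0.1, no minimum or a minimum of 5 on FPKM, the fold from the log2 difference, quantile normalization, sample weights, a fit of the compared groups alone, a fit without a variance trend, rescaling without the 20 most abundant genes, median-ratio scaling, length correction, a replicate block, a stricter adjusted p (0.01), and removal of single samples. Leaving WT-DES sample 1 out of the correlations was added after the data were seen.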

Additional observations from a re-analysis of the deposited data

Results flagged for a closer look

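WT-DES sample 1 lay far from the other WT-DES samples for *Actg2* (642 FPKM), *Myh11* (567), *Tagln* (981), *Des* (415), *Lmod1* (81.3) and *Smtn* (151), where its gap to the next sample, divided by the range of the group, was above Dixon's 95% critical value. No other sample of any group was past it for these 10 genes. Chance alone passes this limit in about 1 of 20 groups, and values of one sample in several genes are not independent.

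The change with DES differed between WT and αERKO mice, by the limma interaction, for *Acta2* (-1.46), *Actg2* (-2.16), *Cnn1* (-1.95), *Des* (-1.74) and *Tagln* (-1.49, all as log2 differences).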

How the results depend on the processing

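With WT-DES sample 1 in the fit, 5 of the 10 genes were called for DES in WT, and leaving out each sample in turn gave 4 to 9 calls. These were not always the same genes: *Des* lost its call without WT-DES sample 2, 3 or 4, at an adjusted p of at most 0.01 and with only the groups compared, and *Myocd* was called higher without WT-veh sample 2, WT-DES sample 2 or WT-DES sample 3. The range was 5 to 9 both for the interaction and for αERKO-DES minus WT-DES, and the 9 in each case came without WT-DES sample 1. Quantile normalization gave 0 calls in these 3 comparisons (limma), where an unadjusted p under 0.05 was reached by 1 gene for DES in WT, 0 for the interaction and 2 for αERKO-DES minus WT-DES. For the interaction, sample weights gave 10 calls and an adjusted p of at most 0.01 gave 3. All other alternatives kept each count within 1.5 times of 5, and none called a gene in the comparisons of αERKO-veh with WT-veh or of αERKO-DES with αERKO-veh. The differences of the *Actg2* to *Acta2* ratio kept their direction whichever sample was left out, from -0.54 to -0.24 for DES in WT besides -0.97 without WT-DES sample 1.

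Of 24 correlations between the deviations of samples with the same number in different groups, 3 were over 0.1 (-0.215 to 0.277). These values gave no clear sign that the numbers pair samples, but they cannot exclude a pairing. A replicate block left 5, 5 and 5 calls in the 3 comparisons and 0 in the other two, and changed none of these counts.

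Some log2 differences changed sign, all of them uncalled under the alternative. Under quantile normalization, WT-DES minus WT-veh was 0.58 for *Myh11*, 0.054 for *Tagln*, 0.15 for *Smtn* and 0.38 for *Mylk*, and the interaction was 0.72 for *Myh11*, 0.16 for *Smtn* and 0.48 for *Mylk*. αERKO-DES minus WT-DES was then -0.22 for *Myh11*, -0.068 for *Tagln*, -0.28 for *Smtn*, -0.36 for *Mylk* and 0.0357 for *Myocd*. αERKO-DES minus αERKO-veh was -0.14 for *Myh11*, -0.0164 for *Smtn* and -0.10 for *Mylk*, and αERKO-veh minus WT-veh was 0.085 for *Actg2*, 0.11 for *Des*, 0.12 for *Lmod1* and 0.12 for *Mylk*. Rescaling without the 20 most abundant genes gave 0.19 for *Myh11* and 0.0757 for *Smtn* in WT-DES minus WT-veh, 0.28 and 0.0743 in the interaction, -0.19 for *Smtn* in αERKO-DES minus WT-DES, -0.0858 for *Myh11* and -0.0485 for *Mylk* in αERKO-DES minus αERKO-veh, and 0.17 for *Lmod1* in αERKO-veh minus WT-veh. In αERKO-veh minus WT-veh, length correction gave 0.0484 for *Actg2* and -0.0247 for *Myh11*, and median-ratio scaling gave 0.0116 for *Lmod1*. With single samples left out, *Myh11* ranged from -0.69 to 0.0345 in WT-DES minus WT-veh (without WT-DES samples 1 and 2) and *Smtn* from -0.0009 to 0.60 in αERKO-DES minus WT-DES (without WT-DES samples 2 and 1). In αERKO-veh minus WT-veh, *Lmod1* ranged from -0.0603 to 0.0812, and in αERKO-DES minus αERKO-veh, *Myh11* ranged from -0.0524 to 0.14 and *Mylk* from -0.0374 to 0.18. The cause of these sign changes was not tested.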

Other observations

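Markers of fat, which lies beside the muscle coat, also differed between the groups. Of 8 markers, 5 were called higher for DES in WT, against 28.9% of all genes tested, and 6 fell in αERKO-DES from the αERKO-veh level, against 1.41% (limma). The interaction was called higher for all 8, against 29.6% of all genes, and these 3 counts were the same without WT-DES sample 1, where the shares of all genes were 29.3%, 3.32% and 30.4%. Their summed FPKM ranged from 261 to 1315 among WT-veh samples and from 1090 to 2550 among WT-DES samples. Among αERKO-veh samples it ranged from 147 to 1369, and among αERKO-DES samples from 18.3 to 71.7. *Fabp4*, the fatty acid carrier of fat cells, averaged 305 ± 170 FPKM (SD, n = 4) with vehicle and 549 ± 171 with DES in WT, and 240 ± 174 with vehicle and 26.8 ± 9.81 with DES in αERKO. The difference of *Fabp4* in WT did not pass the test (log2 difference 1.02, limma adjusted p = 0.118), nor did that of *Cfd*, the gene of adipsin (0.96, limma adjusted p = 0.262). *Car3*, a carbonic anhydrase abundant in fat, rose from 116 ± 67.4 to 341 ± 114 FPKM (1.71, limma adjusted p = 0.0139).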
